A study of Sus scrofa with 12 samples.

Results

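MYL4, TNNT2 and ACTC1 encode 3 contractile proteins that immature skeletal muscle shares with the heart, and their course was followed here in the longissimus dorsi, the long back muscle, of Meishan pigs. The genes were taken by symbol from the annotation of the array platform, which is dated 2016. Each had 1 probe set, so 3 of the 23999 probe sets left after removal of control probe sets, and 3 of 6765 genes with a symbol of their own, are described. The probe sets are Ssc.26279.1.S1_a_at for MYL4, Ssc.19141.1.S1_at for TNNT2 and Ssc.1901.1.A1_at for ACTC1, and all 3 passed the filter on low intensities.

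The muscle of Meishan pigs, untreated and of a single breed, was sampled in fetuses at 65 days post coitus and in pigs at 3, 60 and 120 days after birth, with 3 Affymetrix arrays per stage and 12 in all. The titles call the 3 arrays of a stage biological replicates. Littermate fetuses of a sow were treated as a single individual, and whether their RNA was pooled is not said in the sources used here. The series was designed to follow gene expression through muscle development, so each stage was compared with the stage before it and with the fetus. All values are linear intensities, as deposited, of whole muscle tissue. In such bulk tissue, fewer cells of a type and less RNA per cell cannot be told apart.

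Striated muscle contracts when the myosin heads of the thick filament pull on the actin of the thin filament. The essential light chain, here MYL4, wraps around the neck of the myosin head. The troponin complex, which TNNT2 helps to anchor on tropomyosin, makes the thin filament respond to calcium, and the sarcomeric alpha-actin ACTC1 is a building block of the thin filament itself. In mammals the 3 isoforms are made in developing skeletal muscle and in heart muscle, MYL4 later mainly in the atria. Skeletal fibres replace them during maturation with the isoforms MYL1 and MYL3, TNNT1 and TNNT3, and ACTA1.

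The array medians lay between 49.1 and 52.6 intensity units, and arrays of the same stage correlated with each other at r = 0.905 to 0.985 across probe sets. The first principal component, with 55.0% of the variance, set the fetal arrays apart from the others. On the second, with 12.3%, fetal array 2 at -21.5 and 60-day array 1 at -36.8 lay farthest to the negative side. The spiked hybridization controls had mean log2 intensities, relative to the mean of all arrays, of -0.29 on the fetal and 0.17 on the 120-day arrays. Centring the arrays on these controls shifted the median change of all probe sets by -0.24 from fetus to 3 days and by -0.36 from fetus to 120 days. It turned 3286 probe sets called higher and 3659 called lower at the first step into 1592 and 5119. The 3'/5' ratio of 1 of the 2 actin control pairs, a measure of RNA integrity, had stage means of 2.45 ± 0.168, 3.61 ± 1.06, 5.10 ± 1.17 and 5.08 ± 0.896 in the order of age (SD, 3 arrays each). That of the other pair lay between 0.841 and 0.903 at all stages. The part of these differences in the results below was not tested.

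MYL4, the embryonic and atrial essential light chain, was high in the fetus and at a low level at each stage after birth. Its intensity on the fetal arrays was 2830, 3163 and 2032. On the 3-day arrays it was 58.0, 75.2 and 42.1. All 3 fetal arrays were above all 3-day arrays, and the fetal values lay at the 98.9th to 99.3rd percentile of their arrays against the 45.4th to 61.8th at 3 days. The stage mean fell from 2675 ± 581 to 58.4 ± 16.6 (SD, n = 3), a 45.8-fold ratio of measured intensities. On the log2 scale with 21 intensity units added, the change was -5.08 with a standard error of 0.22 (95% interval -5.56 to -4.61, adjusted p = 7.0e-08 by limma with Benjamini-Hochberg adjustment over 16166 probe sets). By its log2 change MYL4 ranked 1st among the falls of this step, and 2nd with 1 unit added in place of 21. At this step 22.6% of probe sets were called lower and 26.3% had all later arrays below all earlier ones. With 1 or 51 units added, the change was -5.51 or -4.63.

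After birth the MYL4 arrays overlapped from stage to stage. They read 35.2, 32.7 and 53.7 at 60 days, and 53.3, 44.4 and 61.8 at 120 days. The change was -0.36 from 3 to 60 days (95% interval -0.84 to 0.12, adjusted p = 0.453) and 0.28 from 60 to 120 days (-0.20 to 0.76, adjusted p = 0.847). Neither step, nor the change of -0.08 from 3 to 120 days (-0.56 to 0.39, adjusted p = 0.901), passed the test, and the sign of the last turned without 3-day array 2 (0.065) and without 120-day array 2 (0.004). These intensities were close to the array medians, 2 of the 9 arrays after birth were below the 40th percentile that served as filter, and detection calls were not used here. Whether they stood above background is not known, so the folds and log2 changes of MYL4 against the later stages measure intensities, and the size of the change in transcript is not known from them. The order of the stage means was therefore fetus first, with the 3 later stages not separated beyond the spread of their arrays. Of the measured log2 change between fetus and 120 days, 98.4% lay at the step from fetus to 3 days.

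TNNT2, the cardiac and embryonic troponin T, had the same order of steps at a smaller size. The fetal arrays read 1160, 786 and 681. The 3-day arrays read 48.8, 72.3 and 18.3, all below the fetal ones, with array 3 lowest. At 60 days the values were 16.8, 41.8 and 20.7, and at 120 days 33.7, 28.4 and 26.0. The fetal arrays thus stood apart from all 9 later arrays, among which the stages overlapped.

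The fetal mean of TNNT2, 875 ± 252, fell to 46.5 ± 27.1 at 3 days (SD, n = 3), an 18.8-fold ratio of measured intensities. The log2 change was -3.78 ± 0.30 (SE; 95% interval -4.43 to -3.14, adjusted p = 5.58e-06 by limma) and ranked 11th among the falls of this step. It was -4.37 with 1 unit added (6th) and -3.25 with 51 (17th). Later stage means were 26.4 ± 13.5 at 60 days and 29.3 ± 3.92 at 120 days. The log2 change from 3 to 60 days was -0.46 (-1.11 to 0.19, adjusted p = 0.491). That from 60 to 120 days was 0.12 (-0.53 to 0.77, adjusted p = 0.963) and changed sign to -0.026 without 60-day array 1. The step from fetus to 3 days held 91.8% of the measured log2 change between fetus and 120 days. As for MYL4, the later intensities lay at or below the middle of the arrays, between the 18.6th and 60.8th percentile, and 6 of the 9 arrays after birth, all 3 at 120 days among them, were below the 40th percentile that served as filter. Their distance from background is not known, and the limit given for MYL4 holds for TNNT2 as well.

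**Figure D1:**
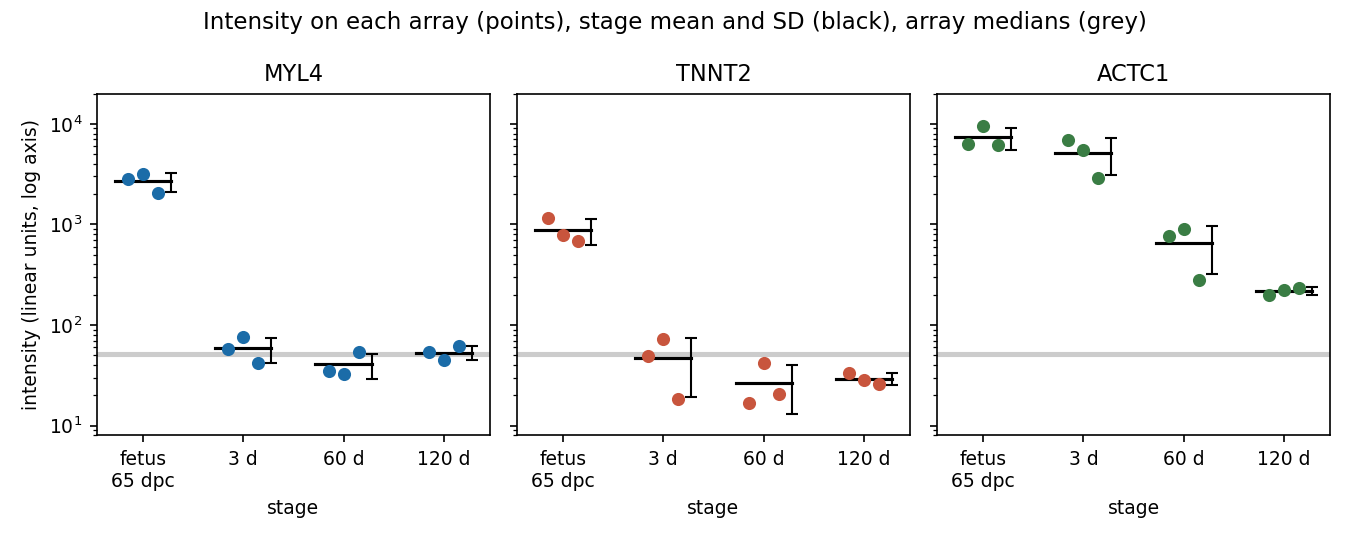
Intensity of MYL4, TNNT2 and ACTC1 on each of the 12 arrays (points; log axis, linear intensity units) against stage, with the stage mean and SD in black (n = 3) and the range of the array medians as a grey band. MYL4 and TNNT2 lay far above the band in the fetus only, whereas ACTC1 was still at 5117 ± 2038 at 3 days.

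ACTC1, the cardiac alpha-actin, was high in the fetus and at 3 days, stages whose arrays overlapped, and lower afterwards. The fetal arrays read 6263, 9443 and 6212. The 3-day arrays read 6910, 5540 and 2901. The stages overlapped, since 3-day array 1 was above fetal arrays 1 and 3, and array 3 was the lowest of its stage as it was for MYL4 and TNNT2. The log2 change was -0.57 ± 0.40 (SE; 95% interval -1.45 to 0.31, adjusted p = 0.271). The interval leaves room for a fall of up to 1.45, so an unchanged level was not shown.

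From 3 to 60 days ACTC1 fell. The 60-day arrays read 764, 896 and 278, all below the lowest 3-day array. The stage mean went from 5117 ± 2038 to 646 ± 325 (SD, n = 3), which is 7.92-fold. The log2 change was -3.01 ± 0.40 (SE; 95% interval -3.89 to -2.13, adjusted p = 0.00506 by limma), the 4th largest fall of this step. It ranked 7th with 1 unit added and 2nd with 51. At this step 0.742% of the probe sets were called lower and 10.0% had all 60-day arrays below all 3-day arrays. In a fit of the 3-day and 60-day arrays alone, without the spread of the other stages, the ACTC1 change was the same but its adjusted p was 0.0645. Leaving out any 1 of the 12 arrays gave changes of -3.37 to -2.51 with adjusted p of 0.00400 to 0.0292.

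At 120 days the ACTC1 arrays read 198, 224 and 235, with a mean of 219 ± 18.7. They were all below the 60-day arrays, of which array 3, at 278, came closest. The log2 change from 60 to 120 days was -1.33 ± 0.40 (SE; 95% interval -2.20 to -0.45), with an adjusted p of 0.774 by limma, and did not pass the test. At this step no probe set was called (0.00%), 1021 had an unadjusted p under 0.05, and 7.52% had all 120-day arrays below all 60-day arrays. ACTC1 at 120 days still lay at the 81.9th to 85.3rd percentile of the arrays. Its log2 values had SDs of 0.345, 0.647, 0.875 and 0.114 in the order of age. The order of the means was fetus, 3, 60 and 120 days, with fetus and 3 days, and 60 and 120 days, not separated by the test.

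Over the whole span from fetus to 120 days all 3 genes fell, at a comparison in which 48.4% of the probe sets were called in either direction. The log2 change was -5.17 for MYL4 (adjusted p = 5.41e-08). It was -4.12 for TNNT2 (adjusted p = 1.97e-06), and -4.82 or -3.50 with 1 or 51 units added. It was -4.91 for ACTC1 (33.4-fold between means, adjusted p = 4.05e-06), the 8th largest fall, or the 13th or 5th with 1 or 51 units added. The ACTC1 arrays were all above the filter. From fetus to 60 days, where 20.4% were called lower, the 3 genes also fell, with log2 changes of -5.45 for MYL4, -4.24 for TNNT2 and -3.58 for ACTC1. The comparisons with the fetus share its 3 arrays. From 3 to 120 days 2.12% of the probe sets were called lower, and ACTC1 had the largest fall of all of them at -4.33 (23.4-fold, adjusted p = 4.62e-04), the 2nd largest with 1 unit added. The corresponding change was -0.34 for TNNT2 (-0.99 to 0.31, adjusted p = 0.614).

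**Figure D2:**
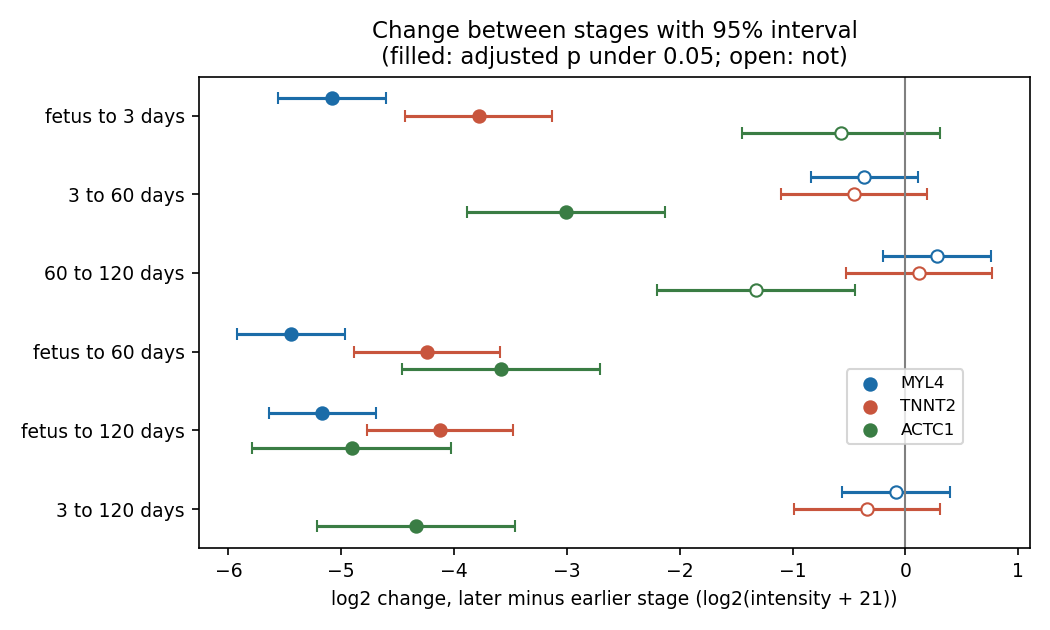
Log2 change of MYL4, TNNT2 and ACTC1 in 6 comparisons of stages (later minus earlier, on log2 of intensity plus 21; points with 95% intervals from limma; filled points have an adjusted p under 0.05). At the first step MYL4 and TNNT2 lay at -5.08 and -3.78 and ACTC1 at -0.57, and at the second ACTC1 lay at -3.01.

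The steps differed within each gene, as tested by the first step minus the second in the same fit, a contrast in which 20.0% of probe sets were called. This difference was -4.72 ± 0.38 for MYL4 (SE, adjusted p = 6.80e-05). It was -3.33 ± 0.52 for TNNT2 (adjusted p = 0.00200). The 3-day intensities of both genes were already near or below the array medians, which limits any further measured fall. Their differences between steps therefore largely restate the fall of the first step. For ACTC1 the first step minus the second had the opposite sign, 2.44 ± 0.70 (adjusted p = 0.0311). This difference no longer passed without fetal array 1 (adjusted p = 0.0528), 3-day array 1 (0.147) or 3-day array 2 (0.114). By step, ACTC1 lost 11.7% of its log2 fall from fetus to 3 days, 61.3% from 3 to 60 days and 27.0% from 60 to 120 days.

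Pairs of the 3 genes were compared on the same array by the difference of their log2 values, which is not a level of either gene. The difference MYL4 minus ACTC1 changed by -4.51 from fetus to 3 days, by 2.65 from 3 to 60 days and by 1.60 from 60 to 120 days. At each of the 3 steps its arrays did not overlap between the stages. TNNT2 minus ACTC1 changed by -3.21, 2.55 and 1.44 at the same steps, also without overlap. MYL4 minus TNNT2 changed by -1.30 at the first step, without overlap. With 3 arrays against 3 the smallest p of the two-sided exact permutation test is 0.1, which all 7 of these changes had, or 0.129 after adjustment over the 9 tests made, so none could pass 0.05. At the steps after 3 days MYL4 minus TNNT2 changed by 0.095 and 0.16, with overlapping arrays and an exact p of 0.9 each. The 3 differences share genes and arrays. MYL4 minus TNNT2 stood at 1.60 in the fetus and at 0.30 at 3 days. Both genes were then near or below the array medians, at an unknown distance from background. The change of -1.30 therefore cannot be told apart from their unequal fetal intensities.

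**Figure D3:**
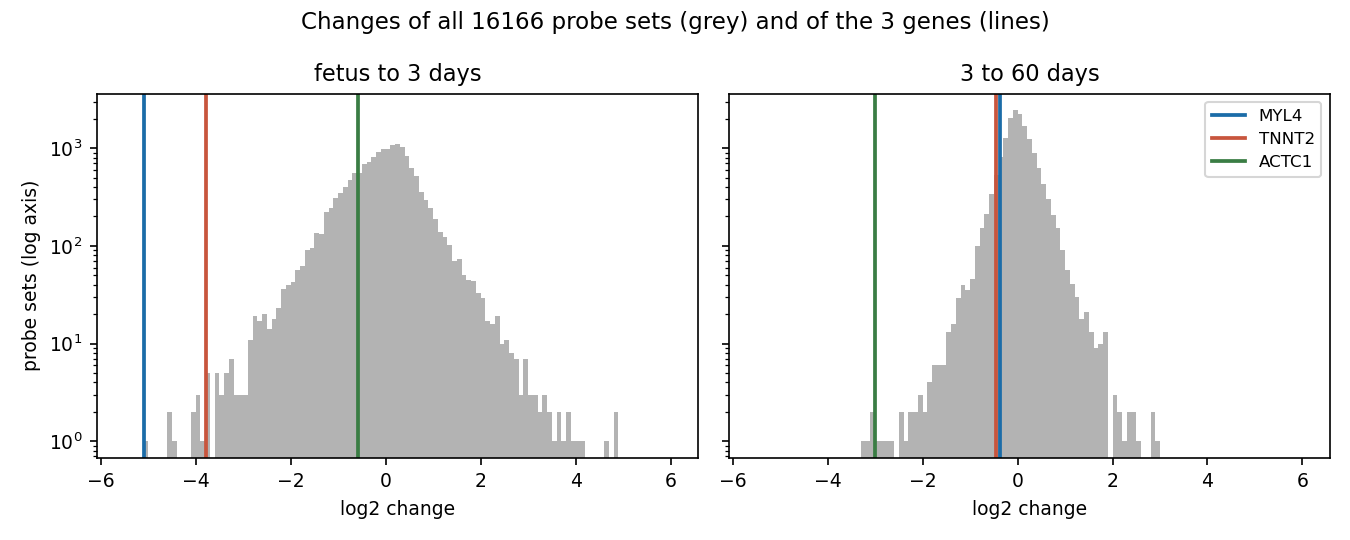
Distribution of the log2 change of all 16166 probe sets tested (grey; number of probe sets on a log axis) from fetus to 3 days on the left and from 3 to 60 days on the right, with MYL4, TNNT2 and ACTC1 as lines. MYL4 at -5.08 and TNNT2 at -3.78 stood in the lower tail of the first step, and ACTC1 at -3.01 in that of the second.

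The width of the 2 distributions differed, as the plot of all probe sets shows. In the first step 43.0% of the probe sets were called in either direction, so that a call in itself sets MYL4 and TNNT2 little apart from others, whereas their size placed them 1st and 11th. In the second step 1.53%, or 247 probe sets, were called. That count was 75 without 3-day array 1 or array 2, 91 without 60-day array 1, 151 without 120-day array 1 and 154 without 120-day array 2.

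The relatives of the 3 genes moved in both directions and by less than MYL4 and TNNT2, MYH2 apart. Of the 3 other essential light chains measured, MYL3, the slow skeletal and ventricular form, rose from 487 to 2494 between fetus and 3 days (log2 change 2.47, adjusted p = 0.00112). MYL6, the non-muscle and smooth muscle form, fell by 0.86. MYL1, the fast skeletal form, had mean intensities of 7297, 9363, 8926 and 9250 in stage order and a log2 change of 0.39 (adjusted p = 0.0655). So 1 of the 3 rose and 1 fell, against 1307 and 1095 of all 5765 genes at this step. MYL6B, the other member of this list, was not analysed here.

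Among 3 regulatory light chains, which bind the myosin neck beside the essential ones, MYL2 and MYLPF rose by 0.66 and 0.55, and both calls were lost when arrays were centred on the hybridization controls (0.36 and 0.25). MYL9, a smooth muscle and non-muscle form, had a change of 0.37 (adjusted p = 0.141). Of the myosin heavy chains, MYH2 of fast oxidative fibres rose from 205 ± 34.6 to 5828 ± 1245 (SD, n = 3; adjusted p = 5.70e-08). MYH7 of slow fibres and heart had a change of 0.51 (adjusted p = 0.123). The embryonic, perinatal and other fast heavy chains were not analysed here.

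Among the 7 other troponins 4 rose from fetus to 3 days and none fell, with a median log2 change of 0.36 against 0.07 over all genes. Of these 5765 genes, 1307 rose and 1095 fell. The slow and fast skeletal troponin T genes, TNNT1 and TNNT3, rose by 0.75 and 0.85. TNNT3 went from 4529 to 8166 while TNNT2 fell on the same arrays. TNNI2, fast troponin I, rose by 0.84. TNNC2, fast troponin C, rose by 0.34, a call lost after quantile normalization (0.18) and after centring on the hybridization controls (0.05). The changes of TNNI1 (slow troponin I, 0.05), TNNC1 (slow and cardiac troponin C, 0.36) and TNNI3 (cardiac troponin I, 0.29) did not pass. TNNI3 was dim throughout, with stage means of 32.0, 44.6, 24.7 and 49.2. From fetus to 120 days, where 24.2% of all genes rose and 22.7% fell, 5 of the 7 rose, TNNC1 included at 0.57, but 2 after centring on the hybridization controls.

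The actins other than ACTC1 differed in direction. Between fetus and 3 days ACTB, a cytoplasmic actin, fell by 0.73 and ACTG2, the enteric smooth muscle actin, fell by 1.15. ACTA2, the vascular smooth muscle actin, had a change of 0.01 (adjusted p = 0.984). ACTG1, the other cytoplasmic actin, was read by 6 probe sets that disagreed. The brightest rose by 0.80, a call lost after centring on the hybridization controls, and 3 others fell, with log2 changes of -0.60, -1.86 and -0.57. At the step from 3 to 60 days, where ACTC1 fell, 0.694% of all genes rose and 0.798% fell. None of these 4 actins was called, and their median log2 change was -0.09 against -0.03 over all genes. ACTA1, the adult skeletal alpha-actin, was not analysed here. Sarcomeric actins are close in coding sequence, and how far the ACTC1 probe set also binds ACTA1 transcripts was not tested.

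Of the tropomyosins, which lie along the actin filament, TPM1 and TPM2 rose at the first step by 0.86 and 0.90, and TPM3 and TPM4 fell, with changes of -1.04 and -1.15. From fetus to 120 days, where 24.2% of all genes rose and 22.7% fell, the same 2 rose and the same 2 fell. Both rises were lost after centring on the hybridization controls, where TPM1 was at 0.48 and TPM2 at 0.20. None of the other light and heavy chains, troponins, actins and tropomyosins listed here was called between 3 and 60 days, where 0.694% of all genes rose and 0.798% fell.

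**Figure D4:**
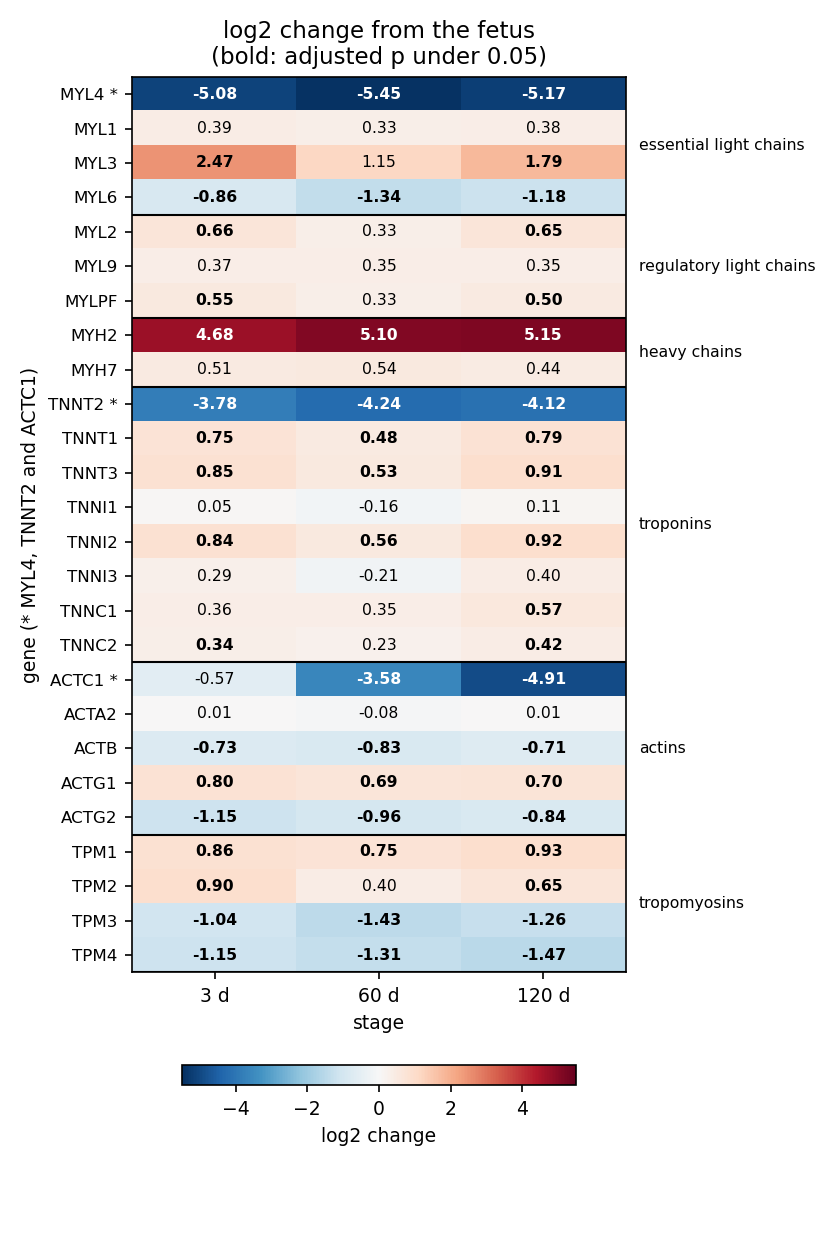
Log2 change from the fetus to 3, 60 and 120 days (columns; numbers and colour) for MYL4, TNNT2 and ACTC1 (asterisks) and for the measured genes of their families (rows). Bold numbers have an adjusted p under 0.05. MYL4 and TNNT2 were low in all 3 columns, ACTC1 from 60 days on (-3.58 and -4.91), and the other muscle isoforms were mostly between -1.5 and 1.5, apart from MYH2 and MYL3.

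Other parts of the thin filament that these proteins build on were also read from a list. Of 13 genes of filament length and capping measured, 6 rose from fetus to 3 days and 1, TMOD3, fell by 0.54 (a call lost after quantile normalization, -0.39), with a median of 0.68. At this step, 1307 of all 5765 genes rose and 1095 fell. TMOD4, which caps the slow-growing filament end, rose by 3.89, from 141 ± 36.3 to 2355 ± 404 (SD, n = 3). XIRP1 and XIRP2, which bind actin at developing myofibrils, rose by 2.03 and 1.35, and NRAP, a scaffold of myofibril assembly, rose by 1.32. Of 11 genes of the thick filament and Z disc 6 rose and none fell, led by PDLIM3 at 2.60 and TCAP at 1.63, and 3 rose and 1 fell after centring on the hybridization controls. Of 11 genes of skeletal muscle identity, which check the labelled tissue, 10 rose, among them ATP2A1, the fast calcium pump, by 2.53. Their summed intensity was 34469 to 48866 on the fetal arrays and 61137 to 72281 on the later ones, so the defining markers of skeletal muscle were present on all arrays. Centring on the hybridization controls left 5 of the 10 rises. Some of these genes, such as MYLPF, TNNT3, NEB and TTN, are in the lists above too, so their rises are counted more than once.

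Because MYL4, TNNT2 and ACTC1 are also heart genes, 25 other genes known from heart muscle were listed, of which 15 were measured. Some, such as TNNI3, are in the lists above too. From fetus to 3 days, when MYL4 and TNNT2 fell, 9 of the 15 rose and 1, GJA1, fell by 1.15, with a median of 0.52. Over all 5765 genes, 1307 rose and 1095 fell. After centring on the hybridization controls 6 of the 15 rose. ANKRD1, a stress-responsive titin-binding protein, rose by 3.99, CKMT2, the mitochondrial creatine kinase of striated muscle, by 3.50 and PLN, an inhibitor of the calcium pump, by 1.42. The natriuretic peptide NPPB rose by 1.36, from 29.8 to 109. The other natriuretic peptide, NPPA, had a fetal mean of 25.5 and rose by 0.39, a call lost after centring on the hybridization controls, and the highest stage mean of TNNI3 was 49.2. GATA4 was below the filter, and MYH6, MYL7 and NKX2-5 were not analysed here.

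From 3 to 60 days, where 0.694% of all genes rose and 0.798% fell, none of the 15 rose. The 1 that fell was CASQ2, the calcium-storing protein of heart and slow fibres. Its fetal arrays read 602, 1104 and 486, and its 3-day arrays 1232, 873 and 634. At 60 days they read 201, 69.2 and 55.7, and at 120 days they lay between 21.8 and 37.1. Fetal and 3-day arrays overlapped and all later ones lay below them, as for ACTC1. The log2 change from 3 to 60 days was -2.97 (adjusted p = 0.00549), and the second CASQ2 probe set changed by -2.31 (adjusted p = 0.0191).

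CASQ2 was also the gene whose values were most like those of ACTC1 across the 12 arrays, with a Pearson correlation of log2 values of 0.965 among 5765 genes. It was followed by TUBB, a beta-tubulin (0.952), XPNPEP1 (0.939), CCDC8 (0.932) and DDAH1 (0.930). The stage means of TUBB were 2979, 2249, 1404 and 735. The most opposite courses were those of ZFAND6 (-0.975), MTDH (-0.954) and ASL (-0.953). Of these 8 genes, CASQ2 and ASL were called between 3 and 60 days, ASL as a rise of 0.63 (adjusted p = 0.0374).

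For MYL4 the most like courses were those of TMEM158 (r = 0.990), VSTM4, PEG3 and SPOCK3 (0.989 each) and MAGI3 (0.988). PEG3, an imprinted gene, was also the most like for TNNT2 (0.993), before ISYNA1 (0.987), GSTA4 (0.985), TMEM158 (0.984) and VSTM4 (0.984). TMEM158 went from 406 ± 62.2 in the fetus to 48.8 ± 4.44 at 3 days, and PEG3 from 156 ± 25.1 to 36.7 ± 8.61 (SD, n = 3). Opposite to MYL4 ran KLF9 (-0.986), MYH2 (-0.986) and CCDC6 (-0.982), and opposite to TNNT2 ran PDLIM3 (-0.990), CCDC6 (-0.982) and SLC27A1 (-0.978). MYL4 and TNNT2 correlated with each other at 0.984 (Spearman 0.762), MYL4 and ACTC1 at 0.639 and TNNT2 and ACTC1 at 0.689. These correlations describe 12 arrays in 4 stages and share the arrays, their scaling and the gap between fetus and later stages.

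**Figure D5:**
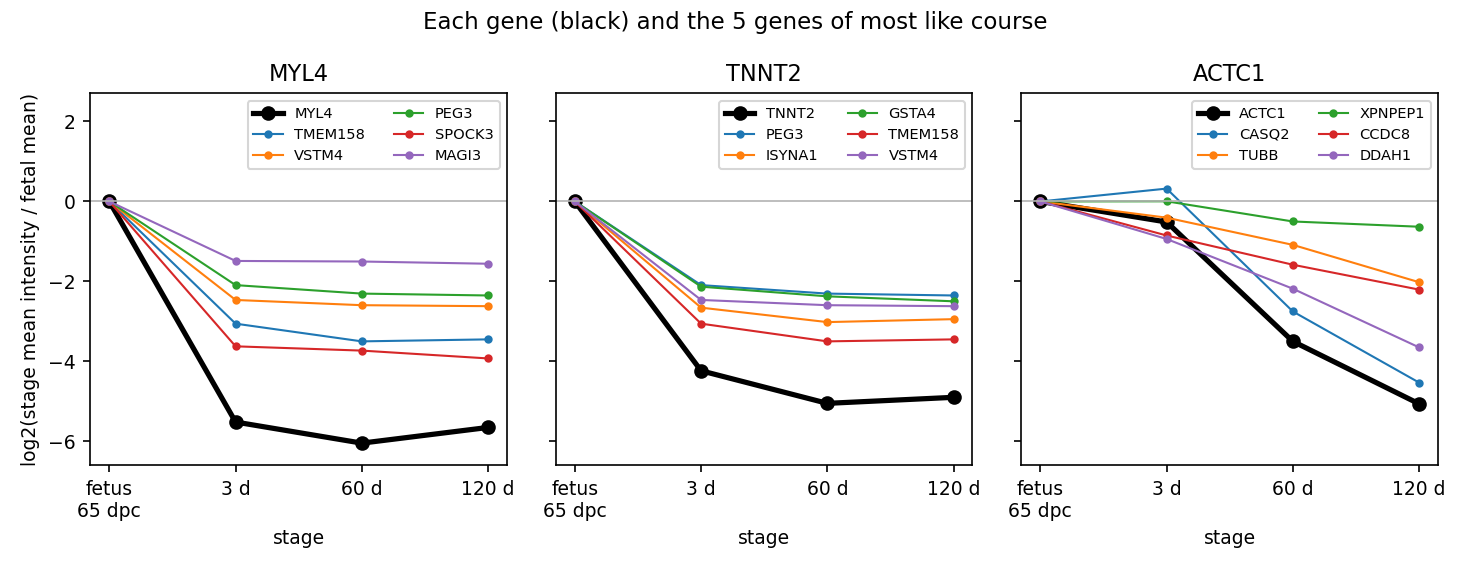
Stage mean intensity relative to the fetal mean (log2, vertical axis) at the 4 stages for MYL4, TNNT2 and ACTC1 (black) and for the 5 genes with the highest Pearson correlation to each over 12 arrays (colours). The genes like MYL4 and TNNT2 were low from 3 days on. Those like ACTC1 had lower means at 60 and 120 days than at 3 days, with no change from 60 to 120 days past the test. CCDC8 among them also fell from fetus to 3 days (log2 change -0.77).

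Factors that control sarcomere genes or their splicing were listed as well, and 21 of 53 were measured. From fetus to 3 days the median log2 change was -0.32, and 9 fell and 2 rose, against 1095 and 1307 of all 5765 genes. After centring on the hybridization controls 11 of the 21 fell and 1 rose. The largest log2 changes were -2.47 for MYF5, a factor of myoblast commitment, -1.57 and -1.29 for the nuclear factors NFIB and NFIA, and -1.47 for MBNL3, a splicing factor of the muscleblind family. The 2 that rose were TEAD4 by 1.02 and ID2 by 0.41, named after their values were seen, and the rise of ID2 was lost after centring on the hybridization controls. From 3 to 60 days, where 0.694% of all genes rose and 0.798% fell, none of the 21 was called. Of 7 genes of immature fibres and myoblasts 4 fell at the first step by the probe set that stands for each, among them MSTN (myostatin, log2 change -3.24) and VIM (vimentin, -1.45). NCAM1, a cell adhesion molecule, is not among the 4, since its probe set had a change of 0.39 (adjusted p = 0.0606), but its 3 other probe sets fell, with changes of -2.84, -0.64 and -1.10. IGF2, the fetal insulin-like growth factor, was the only 1 of the 7 called between 3 and 60 days, where it fell by 2.02. Its 10 further probe sets disagreed at the first step, where 3 fell and 2 rose. Among the 43 listed genes with several probe sets, 6 had another probe set called the opposite way at the first step, and 4 were not called although another probe set was.

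Some markers of other cells in the muscle moved at the same step as MYL4 and TNNT2. Of 8 fibroblast markers measured 6 fell from fetus to 3 days and none rose, with a median of -2.25. At this step, 1095 of all 5765 genes fell and 1307 rose. Periostin (POSTN) fell by 3.52 and the collagen gene COL1A2 fell by 2.62 on the log2 scale. Their summed intensity was 12419 to 19782 on the fetal arrays, 3199 to 5242 at 3 days, 2973 to 6396 at 60 days and 3666 to 5883 at 120 days, and none of the 8 was at 0. The part of this difference in the falls of MYL4 and TNNT2 was not tested. From 3 to 60 days none of the 8 was called, and the ranges of the summed intensity overlapped. As 0.694% of all genes rose and 0.798% fell at this step, no call among 8 says little. The part of these markers in the fall of ACTC1 was not tested.

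Smooth muscle cells and pericytes are cells in which actin isoforms are also abundant. Of their 9 markers, 1 rose and 2 fell at the first step, against 1307 and 1095 of all 5765 genes. After centring on the hybridization controls 1 of the 9 markers rose and 3 fell. None of the 9 was called at the second step. Their summed intensity was 4334 to 6918 in the fetus, 6841 to 7838 at 3 days, 6365 to 6990 at 60 days and 6686 to 7204 at 120 days. At the first step 1 of 9 endothelial markers rose and 1 fell, against 0 and 3 after centring on the hybridization controls. Of 6 adipocyte markers 4 rose, against 1 after this centring. Of 4 erythroid markers 1 rose and 1 fell (1 and 2 after centring), of 4 nerve markers 2 rose and 2 fell (1 and 2), and none of 6 immune markers was called. At the second step 1 erythroid marker, TFRC, and 1 nerve marker, NEFL, fell. No other marker of these lists was called by the probe set that stands for it. For the nerve marker MBP, 2 other probe sets rose at this step, by 1.73 and 1.10 (adjusted p = 0.00263 and 0.0135 by limma). The part of all these markers in the course of the 3 genes was not tested.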

How the data were processed

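Total RNA of longissimus dorsi was hybridized to Affymetrix porcine arrays, 3 per stage at 4 stages. The authors deposited linear intensity values per probe set, made with GCOS 1.4 per the submitters' processing notes. Summary method and scaling were not given in the sources used here. Detection calls were not used here.

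Control probe sets (124 of 24123) were left out, and 16166 of 23999 probe sets (67.4%) were kept, those exceeding their array's 40th percentile on at least 3 arrays. Log2(intensity + 21) values were fitted with limma 3.58.1 (R 4.3.3; all 4 stages, no covariate, eBayes with a mean-variance trend, 8 residual degrees of freedom). Adjusted p-values are Benjamini-Hochberg values over all kept probe sets, with calls under 0.05, and folds on this log2 scale understate changes of dim genes. Tests were tried on simulated data first. A gene with several probe sets is read from the kept one with the highest mean log2 value over all arrays. Differences between the 3 genes were tested by exact permutation (SciPy 1.17.1). Of the probe sets, 10069 have a single symbol, 198 several and 13732 none.

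The number of arrays limits the precision. Dim intensities and the choice of array scaling limit the readings as well, as described above.

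Apart from the 3 genes and their families, up to 4 genes per list and step with the largest called change were named, and for each of the 3 genes the 5 most and 3 least correlated. Some genes were named outside this rule, among them NPPA, NCAM1, TEAD4 and ID2. The genes and the lists were chosen with earlier results of these data known.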

Additional observations from a re-analysis of the deposited data

How the results depend on the processing

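The falls of MYL4 and TNNT2 from fetus to 3 days, and those of all 3 genes from fetus to 60 and to 120 days, passed the test under each of the 13 alternatives and with any 1 array left out. From fetus to 3 days the change of MYL4 ranged from -5.51 to -4.63 over the alternatives and that of TNNT2 from -4.37 to -3.25. The fall of ACTC1 from 3 to 60 days ranged from -3.52 to -2.94 and missed the threshold in the fit of the compared stages alone (-3.01, adjusted p = 0.0645). With array weights TNNT2 also fell from 3 to 120 days (-0.73, adjusted p = 0.0118). The small change of TNNT2 from 60 to 120 days was -0.026 without fetal array 2 and 60-day array 1, a pair chosen after seeing the data, and -0.026 to 0.34 with 1 array left out. With 1 array left out, MYL4 ranged from -0.24 to 0.065 from 3 to 120 days, and the ACTC1 difference between steps from 1.92 to 3.16. MYL4 minus TNNT2 ranged from -0.13 to 0.41 from 3 to 60 days, below 0 without 3-day array 2 (-0.034) or 60-day array 3 (-0.13), and from -0.15 to 0.38 from 60 to 120 days, below 0 without 60-day array 2.

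Counts of called probe sets moved more. From 3 to 60 days 247 became 926 with array weights, 39 with the compared stages alone, 111 without fetal array 2 and 60-day array 1, and 75 to 297 with 1 array left out. From 60 to 120 days 0 became 1 without a filter and 0 to 5 with 1 array left out, 5 being without 60-day array 3. From 3 to 120 days 714 became 4756 with array weights, 1525 with the compared stages alone, 1147 without those 2 arrays and 188 to 862 with 1 left out, the lowest without 120-day array 1. For the difference between steps 3236 became 6016 with array weights and 1264 to 3516 with 1 left out, the lowest without 3-day array 1. With the replicate number as a block the count from 3 to 60 days was 161, the adjusted p of ACTC1 there 0.00408, and no call of the 3 genes changed. Of 18 same-numbered pairs of arrays, 8 had correlated deviations over 0.1 (range -0.42 to 0.30), and 3 of 12 arrays correlated best with their own number, so the numbers were not taken as pairs. Other probe sets of the 3 genes could not be tried, as each has 1. The cause of these shifts was not tested.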
